A study of Homo sapiens with 4 samples.

Results

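Among the strong accessible regions of control fibroblasts, 2185 of 41630 had only a weak peak when ΔNp63α was expressed as well. Accessible regions were measured by ATAC-seq, in which a transposase cuts DNA that is not wrapped in nucleosomes and tags it for sequencing, so that reads pile up at promoters and enhancers. The cells were human BJ fibroblasts, an established cell line, with a doxycycline-responsive transactivator (rtTA). Control cells (CTR) had a retroviral construct for doxycycline-inducible KLF4, with a Myc tag and a self-cleaving peptide in front of it. In p63 cells the construct held Myc-tagged ΔNp63α in front of KLF4, joined by a self-cleaving peptide, so KLF4 was expressed in both groups. Both groups were treated with doxycycline before ATAC-seq, a set-up that the paper used to see early changes of chromatin. Each group had 2 replicates, which were separate inductions of the same polyclonal lines, and 1 list of peaks was available per group, so no value has a spread between replicates and no test between the conditions could be made.

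The weakened regions were CTR peaks on chromosomes 1 to 22 and X with a −log10 q of 15 or more that overlapped at least 1 peak of the p63 list by 1 bp or more, where every overlapping p63 peak had a −log10 q below 10. The −log10 q is the peak caller's measure of how far the reads at a summit exceed the local background, and 10 is the threshold that the study used for an open region. These values chose the regions, and they are given below only as a description. Weakened regions made up 5.25% of the CTR regions of this strength (95% Wilson interval 5.04 to 5.47%). Of the others, 39112 regions (94.0%) met a p63 peak of 10 or more and are called retained, and 333 (0.800%) met no p63 peak. In the opposite direction, 3314 of 46609 p63 regions of −log10 q 15 or more overlapped CTR peaks that were all below 10, which is 7.11%.

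p63 is a transcription factor of the p53 family that specifies and maintains the epidermis. Its ΔNp63α isoform binds enhancers, opens chromatin there and, together with KLF4, can turn fibroblasts towards keratinocytes. In fibroblasts many enhancers are held open by AP-1, the FOS and JUN family that answers to growth and stress signals, and by TEAD factors, which act with YAP and TAZ downstream of cell tension. CTCF marks a further kind of accessible site, the boundaries and anchors of chromatin loops. RUNX and C/EBP proteins are other enhancer factors of mesenchymal cells. The fibroblast identity of the cells was visible in both lists, with a peak of −log10 q 10 or more within 1 kb of the start of 9 of 10 fibroblast marker genes in CTR and of 9 in p63, against 1 and 2 of 8 keratinocyte markers. Of the immune markers 2 of 3 had such a peak in CTR and 1 in p63, and of the endothelial markers none of 2 had one in either list.

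The sequences of 3 of the strongest weakened regions show what these sites look like. Each is given from hg38, on the + strand, 50 bp to either side of the CTR summit, with matches to the AP-1, TEAD or RUNX letters in capitals. They were chosen for their rank by CTR −log10 q and not for their sequence.
TNS3, chr7:47574146-47574246: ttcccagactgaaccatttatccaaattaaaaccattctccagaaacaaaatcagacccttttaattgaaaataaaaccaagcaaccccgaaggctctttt
CTSC, chr11:88402539-88402639: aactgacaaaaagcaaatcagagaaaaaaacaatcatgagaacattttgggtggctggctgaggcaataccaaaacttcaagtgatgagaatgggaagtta
SYN2, chr3:12187953-12188053: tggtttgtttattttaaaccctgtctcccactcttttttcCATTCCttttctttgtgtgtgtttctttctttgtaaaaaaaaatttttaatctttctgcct
All 3 are rich in A and T, with 35.6%, 37.6% and 29.7% GC over the letters shown. The SYN2 letters hold 1 TEAD match, and the letters at TNS3 and CTSC hold none of these within 50 bp.

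The weakened regions were among the weaker of the strong CTR regions, and at most single regions the Poisson intervals of the reads overlapped. Their CTR −log10 q ran from 15 to 39.2 with a median of 17.8, and 1597 of the 2185 lay below 20. In the p63 list the strongest overlapping peak had a median of 7.94 with a range of 1.5 to 10. The reads behind these values could be worked back from the fold and the −log10 p of each peak. The number of reads over the summit ran from 20 to 83 in CTR with a median of 25, and from 6 to 62 in p63 with a median of 14. The p63 number was lower in 2184 regions, equal in 1 and higher in 0, as the selection almost requires, and 771 regions had at most 0.5 times the CTR reads. The median ratio of p63 to CTR reads was 0.55, against 1 in retained regions. The 95% Poisson intervals of the numbers of reads did not overlap in 112 regions (5.13%). That held for 16 of the 1597 regions below a CTR −log10 q of 20 and for 96 of the 588 above it. These reads come from the values that chose the regions, and the lists were not scaled to each other. Overlap of the intervals, or its absence, is therefore a description here and not a test of a drop.

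**Figure D1:**
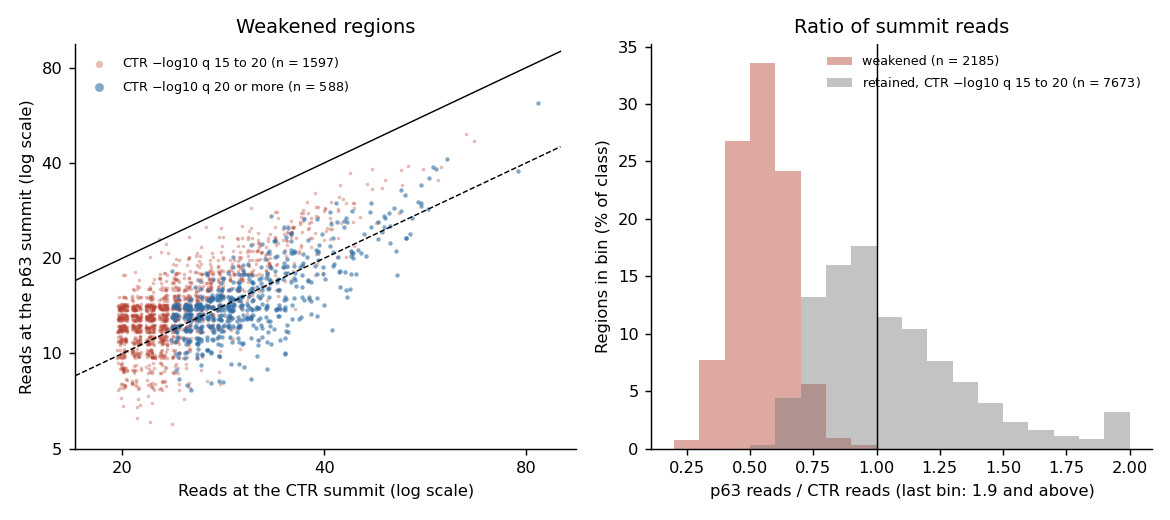
Reads over the summit in each weakened region in the CTR list (x axis, log scale) and the p63 list (y axis, log scale), with small random shifts so that points do not coincide (left; solid line, equal numbers; dashed line, a ratio of 0.5), and the ratio of p63 to CTR reads as a share of each class (right). The 2185 weakened regions centre on a ratio of 0.55, and the 7673 retained regions of CTR −log10 q 15 to 20 centre on 1.

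The share of CTR regions that were weakened dropped steeply with their strength, as the rule makes likely. It was 16.8% of the 9520 regions with a CTR −log10 q of 15 to 20, 6.68% from 20 to 25, 2.13% from 25 to 30 and 0.403% from 30 to 40. None of the 7889 regions from 40 to 60 or of the 5110 above 60 was weakened. Near the lowest background in each list, 20 reads were enough to pass 15 in CTR and 15 reads to pass 10 in p63, and 222 weakened regions had 14 p63 reads at that background. The 5 weakened regions just inside the CTR threshold had a −log10 q of up to 15.03, and the 5 regions just outside it that met only weak p63 peaks had 14.99 or more. At the p63 threshold, the 5 regions just inside had 9.97 or more in the p63 list and the 5 just outside had 10 when rounded. The number of reads in the local background was a little lower in p63 as well, with a median ratio of 0.880 in weakened and 0.959 in retained regions. The lowest background was itself 1.18 reads in CTR and 1.13 in p63. Of the weakened regions, 399 had this lowest background in CTR and 960 in p63.

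Most weakened peaks had a p63 summit close by. In 2153 regions a single p63 peak overlapped the CTR peak, in 31 there were 2 and in 1 there were 3. The p63 summit lay within 50 bp of the CTR summit in 1286 regions, with a median distance of 39 bp. p63 peaks covered a median of 74.8% of the CTR peak, against 93.8% in retained regions, and the CTR peaks had a median width of 477 bp.

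The strongest weakened region, with a CTR −log10 q of 39.2, lay at chr7:47574045-47574644 in an intron of TNS3, which encodes the focal adhesion protein tensin 3. It had 78 reads in CTR (95% Poisson interval 61.7 to 97.3) and 38 in p63 (26.9 to 52.2), and the −log10 q in p63 was 7.95. Second came chr11:88402195-88403062, 42905 bp upstream of the start of CTSC, the lysosomal protease cathepsin C, in an intron of a gene that does not code for protein. Its reads numbered 53 in CTR (39.7 to 69.3) and 23 in p63 (14.6 to 34.5). In both regions the intervals did not overlap. At chr3:12187512-12188274, in an intron of the synapsin gene SYN2, 44 reads in CTR (32 to 59.1) stood against 20 in p63 (12.2 to 30.9), and the intervals did not overlap either.

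Another 6 of the 10 strongest regions had 43 to 48 CTR reads and 15 to 23 p63 reads. One lay 11209 bp upstream of ZFP36L1, whose product promotes decay of mRNAs of growth and inflammatory genes, at chr14:68807077-68807720. Another lay in an intron of DLGAP1 at chr18:3579754-3580118, with TGIF1, a repressor of TGF-β signalling, as its nearest protein-coding gene. One more lay in an intron of AHNAK at chr11:62440023-62440667. The region nearest to the cartilage regulator SOX9 was 250070 bp from it, at chr17:72370829-72371259, so its nearest gene says little about its target. The remaining 2 were nearest to CFAP418 and TUT7, at distances of 136397 and 250498 bp.

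Of the 10 regions with the lowest fold in p63 relative to CTR, 2 were nearest to collagen genes. The others were nearest to EDNRB, TMOD3, CBFA2T2, VPS13D, DYNC1I1, GULP1, PRLHR and CDCA7. The lowest ratio, 0.312, was at chr9:98899531-98899966, 43428 bp upstream of COL15A1, a collagen of basement membranes. It had 22 reads in CTR (13.8 to 33.3) and 6 in p63 (2.20 to 13.1), at summits 197 bp apart. The p63 peak there covered 35.3% of the CTR peak. At chr13:77980545-77981060, 5283 bp upstream of the endothelin receptor gene EDNRB, 28 reads (18.6 to 40.5) stood against 8 (3.45 to 15.8). At chr6:75217150-75217778, 11145 bp upstream of COL12A1, which encodes the collagen that decorates collagen I fibrils, 33 reads (22.7 to 46.3) stood against 11 (5.49 to 19.7). In these 3 regions the intervals did not overlap, as choosing the lowest ratios makes likely. The region in a coding exon of TMOD3, a protein that caps actin filaments, had 26 reads (17 to 38.1) in CTR and 13 (6.92 to 22.2) in p63, and there the intervals overlapped.

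Few weakened regions lay at the start of a protein-coding gene. Of the 2185, 205 (9.38%) had a summit within 1 kb of the start of a protein-coding gene, against 31.2% of retained regions and 17% of those weighted to the strength of the weakened ones. The strongest of these was the PUS3 promoter at chr11:125902769-125903634, with 41 reads in CTR (29.4 to 55.6) and 12 in p63 (6.20 to 21.0). PUS3 encodes a pseudouridine synthase of tRNA. Next in strength, among others, were the promoters of the splicing factor gene RBM17, of the nucleoside kinase gene DCK and of CDC42EP5, whose product binds the GTPase CDC42. These 3 had 29 to 34 CTR reads and 14 p63 reads each, and the intervals overlapped in all but RBM17 (23.55 to 47.5 in CTR and 7.65 to 23.49 in p63).

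By position, weakened regions lay inside genes and between genes more often than retained ones. A summit within 3 kb of any annotated transcription start counted as a promoter, and 532 weakened regions (24.3%, 22.6 to 26.2%) were promoters by this rule, against 46.2% of retained regions. Much of that gap goes with strength, since strong peaks are often promoters. When retained regions were weighted to the CTR −log10 q classes of the weakened ones, their promoter share was 33.8%. Among regions of CTR −log10 q 15 to 20 the shares were 24.7% and 32.7%, a difference of -7.99 percentage points (95% Newcombe interval -10.3 to -5.58). Regions inside genes made up 48.5% of weakened and 41.3% of weighted retained regions, and regions between genes 27.2% and 24.8%. Regions with no p63 peak had shares near those of weakened ones. Of them 23.7% were promoters, 50.5% lay inside genes and 25.8% between genes. Introns held 61.8% of weakened summits, and 31.3% lay over 50 kb from the nearest start of a protein-coding gene, against 25.8% of weighted retained regions.

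Promoters were counted by the kind of gene at the nearest start, without weighting to strength. Of CTR promoter regions whose nearest start belonged to a protein-coding gene, 2.48% were weakened, against 3.39% for long non-coding RNAs and 4.96% for other genes such as pseudogenes. CpG-rich sites, with 12 or more CpG in the 201 bp at the summit, were seldom weakened. In all, 116 weakened regions (5.31%) were of this kind, against 13.4% of weighted retained regions and 0.901% of regions with no p63 peak. Among all regions of −log10 q 15 to 20 the weakened share was 8.93% for CpG-rich sites and 13.3% for promoters, against 18.4% inside genes and 18.3% between genes.

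Weakened regions were poor in G and C. The median GC content of the 201 bp at the summit was 44.3% in weakened and 51.7% in retained regions, and 44.8% and 48.3% among those of −log10 q 15 to 20. Regions without a p63 peak had 45.8%. The weakened share dropped from 12.4% of regions below 40% GC to 1.32% of those at 70% or more. Among regions of −log10 q 15 to 20 it dropped from 25.3% (23.3 to 27.4%) to 8.01% (6.07 to 10.5%). Windows of the same width 2 kb to either side of the summits differed less, with medians of 42.0% in weakened and 43.8% in retained regions of −log10 q 15 to 20.

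The ratio of the p63 to the CTR list moved with GC content over all regions, not only the weakened ones. In all CTR regions with a p63 peak, the median ratio of reads rose from 0.838 below 40% GC to 1 at 50 to 55% and 1.03 at 60 to 70%. The median ratio of the background moved in the same direction, from 0.881 to 0.994 at 55 to 60% GC. In the opposite direction, the share of p63 regions of −log10 q 15 to 20 that were below 10 in CTR rose from 13.1% below 40% GC to 21.4% at 55 to 60% and was 7.80% at 70% or more. The part of this list-wide trend in the GC content and position of the weakened regions was not tested beyond 1 alternative. When the ratio of folds was divided by its median in the same GC class and regions at 0.6 or less were taken, 964 regions were chosen, with a median GC content of 46.3% and a promoter share of 24.4%.

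**Figure D2:**
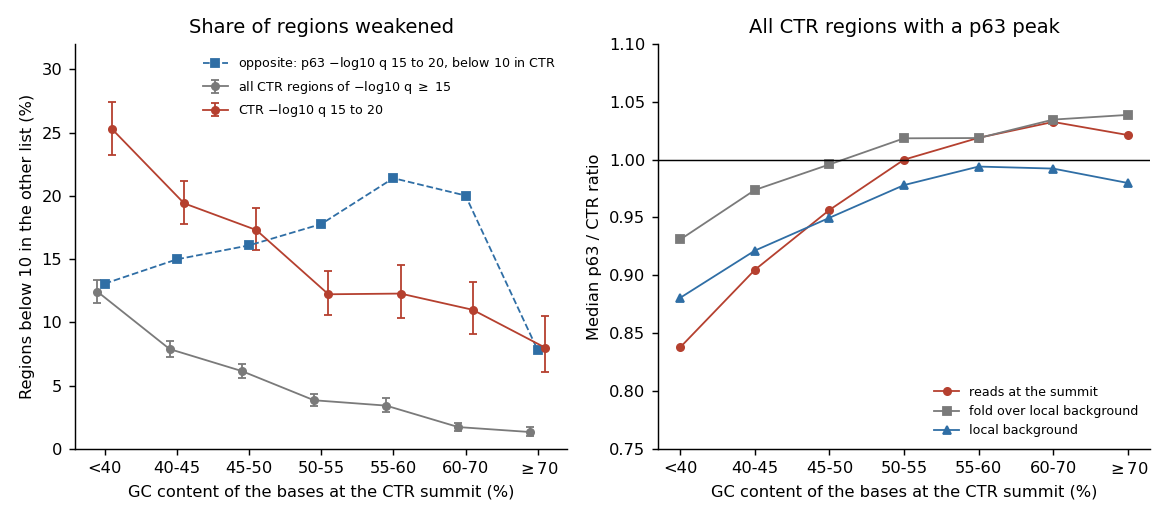
Share of regions weakened by GC content of the summit window, for all CTR regions of −log10 q 15 or more and for those from 15 to 20 with 95% Wilson intervals, beside the share of p63 regions that were below 10 in CTR (left), and the median p63 to CTR ratio of reads, fold and background in all CTR regions with a p63 peak (right). The weakened share drops from 25.3% to 8.01% among regions of −log10 q 15 to 20 while the median ratio of reads rises from 0.838 to 1.03 at 60 to 70% GC.

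Sequence content was read from 201 bp at each CTR summit, for the letters of 21 factor motifs on both strands. The AP-1 letters were TGACTCA or TGAGTCA, TEAD was CATTCC, RUNX was TGTGGTT, C/EBP was TTGCNNAA and NFI was TTGGC and GCCAA 5 bases apart. The CTCF motif was matched with at most 1 mismatch and the p63 site, a 20 bp repeat of the p53 family half-site, with at most 3 mismatches outside 4 fixed core bases. A match is a stretch of letters and not evidence of binding.

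**Figure D3:**
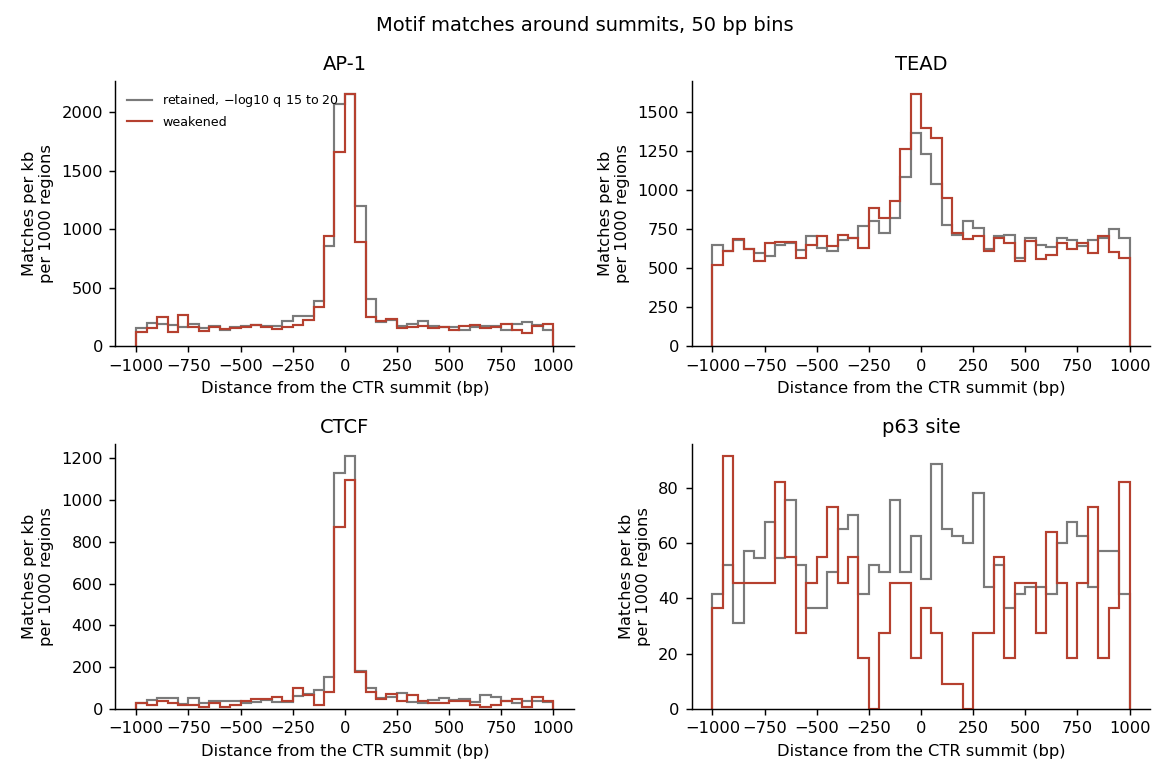
Matches per kb and per 1000 regions in 50 bp bins around the CTR summit, for weakened regions and for retained regions of −log10 q 15 to 20. AP-1 and CTCF matches peak at the summits of both classes, TEAD matches rise by a smaller factor, and matches to the p63 site are rare and show no rise in weakened regions.

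AP-1, CTCF, RUNX and TEAD matches were denser at the summits than away from them, in weakened and in retained regions. In weakened regions, matches within 50 bp of the summit were 11.6 times as dense as those 500 to 1000 bp away for AP-1. The ratio was 38.4 for CTCF, 2.74 for RUNX and 2.43 for TEAD. In retained regions of −log10 q 15 to 20 the ratios were 12.6 for AP-1, 29.2 for CTCF, 2.11 for RUNX and 1.98 for TEAD. The p63 site had a ratio of 0.561 in weakened regions and 1.05 in retained regions of −log10 q 15 to 20. Its ratio in weakened regions rests on few matches and has no interval. Within 50 bp there were 27.5 matches per kb and per 1000 weakened regions, against 1908 for AP-1.

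AP-1 letters were less frequent in weakened than in retained regions once promoters were set aside. Over 3 kb from a start, 443 of 1653 weakened regions (26.8%, 24.7 to 29%) had an AP-1 match, against 37.4% of the 21034 retained regions there. Weighting the retained regions to the strength of the weakened ones gave 33.5%, and weighting to strength and GC content gave 34.8%. Among distal regions of −log10 q 15 to 20 the shares were 27.5% and 32.5%, a difference of -5.01 percentage points (-7.78 to -2.12). Distal regions with no p63 peak had an AP-1 match in 25.2% of cases (20.3 to 30.9%), near the weakened share. Of distal CTR regions with an AP-1 match 5.29% were weakened, against 8.31% of those without one. At promoters, without weighting to strength or GC content, the direction was the opposite, with AP-1 letters in 26.1% of weakened and 14.5% of retained promoters. Over all locations the shares were close, 26.6% and 26.8%. Windows 2 kb away had a match in 3.57% of cases.

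Among the strongest weakened regions with an AP-1 match were those near CTSC and in SYN2. Their sites are shown with 30 bp to either side on the + strand of hg38, with the AP-1 letters in capitals.
CTSC, chr11:88402465-88402531: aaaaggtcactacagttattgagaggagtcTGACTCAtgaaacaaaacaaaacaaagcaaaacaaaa
SYN2, chr3:12188025-12188091: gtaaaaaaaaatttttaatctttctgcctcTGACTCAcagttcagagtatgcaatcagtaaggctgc
Both carry the same form of the site in A-rich and T-rich surroundings, with 32.8% and 35.8% GC over the letters shown.

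TEAD, RUNX and C/EBP letters leaned the other way in the weighted comparisons. A TEAD match was found in 24.6% (22.5 to 26.7%) of distal weakened regions, against 23.3% of distal retained ones, a difference of 1.3 percentage points whose interval included 0 (-0.796 to 3.51). Weighting the retained regions gave 21.4% by strength and 21.9% by strength and GC. Among distal regions of −log10 q 15 to 20 the difference was 3.66 percentage points (1.04 to 6.40). RUNX letters were in 9.62% of distal weakened regions against 8.71% of those weighted to strength and GC, and C/EBP letters in 13.9% against 12.2%. The SRF CArG box, the element of actin and smooth muscle genes, was in 35 distal weakened regions (2.12%, 1.53 to 2.93%) against 1.4%. These values were computed for 21 motifs, and for RUNX and C/EBP the weighted shares lay within or just under the intervals of the weakened regions (8.29 to 11.1% and 12.3 to 15.7%). The GC box, the element of SP and KLF factors, was in 4.3% of distal weakened regions, against 7.43% of distal retained regions and 4.47% of those weighted to strength and GC. Neither AP-1, TEAD, CTCF nor RUNX letters were found in 685 distal weakened regions (41.4%), against 35.9% of distal retained ones.

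Of the weakened regions with RUNX letters, the strongest was the TNS3 region, whose site straddles the left end of the window printed for it above.
TNS3, chr7:47574111-47574177: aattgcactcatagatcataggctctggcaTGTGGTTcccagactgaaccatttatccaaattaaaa
The capitals mark the RUNX letters, on the + strand of hg38.

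CTCF letters were less frequent in weakened regions than in those with no p63 peak. A CTCF match was found in 9.92% (8.57 to 11.5%) of distal weakened regions, and retained regions weighted to strength and GC had 9.81%. In distal regions with no p63 peak the share was 22.8% (18.1 to 28.4%). Weighted to strength alone, the retained share was 12.4%. The strongest weakened regions with CTCF letters were intergenic, 98987 bp from ADCK1 and 116193 bp from the chromatin remodeller gene CHD6, with 34 CTR reads each and 14 and 13 p63 reads. Their sites are shown with the 13 bp matched to the CTCF motif, each with 1 mismatch, in capitals.
ADCK1, chr14:78022140-78022212: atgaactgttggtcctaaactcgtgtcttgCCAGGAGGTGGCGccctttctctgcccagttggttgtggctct
CHD6, chr20:41734583-41734655: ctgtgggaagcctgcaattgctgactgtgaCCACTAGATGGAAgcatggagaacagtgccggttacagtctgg

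Sites for p63 itself were scarce in weakened regions. Of the 2185, 11 (0.503%, 0.281 to 0.899%) had a match, against 0.941% of retained regions and 0.755% of windows 2 kb from the weakened summits. Over 3 kb from a start the share was 0.423% (7 regions), against 1.03% of retained regions weighted to strength and GC. All 11 had 3 mismatches. CTR regions with a site of 0, 1 or 2 mismatches numbered 6, 12 and 64, and none of them was weakened, which for the 64 allows a share of up to 5.66% by the Wilson interval. Of the 2 strongest with a match, one was in an intron of KCNJ6, at chr21:37700600-37701084, and is shown with the 20 bp of the match in capitals.
KCNJ6 intron, chr21:37700684-37700763: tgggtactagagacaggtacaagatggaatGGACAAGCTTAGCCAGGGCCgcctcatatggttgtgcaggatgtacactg
It had 31 reads in CTR and 13 in p63.

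**Figure D4:**
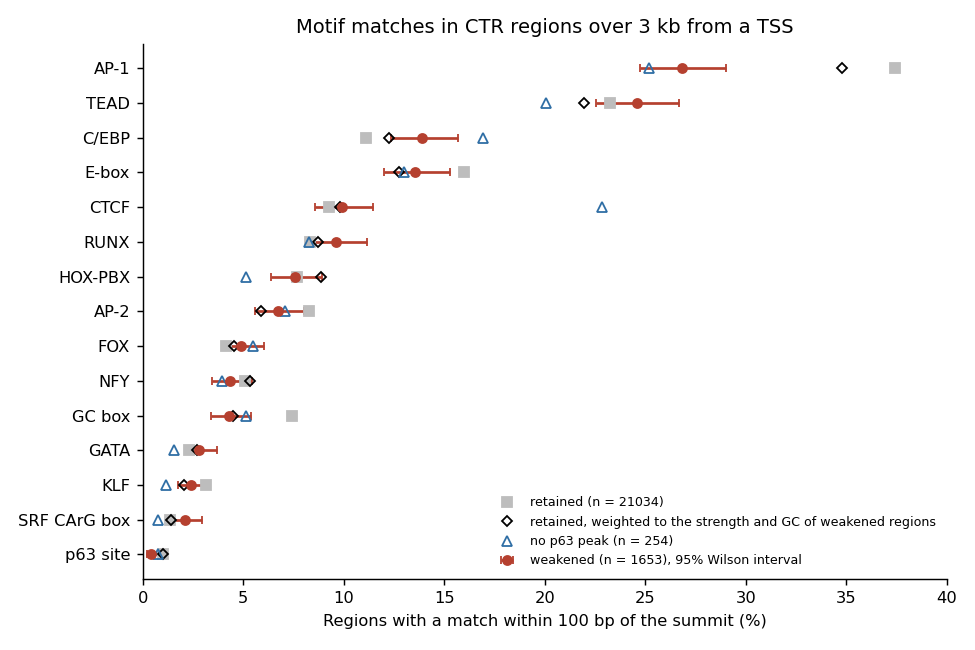
Share of CTR regions over 3 kb from a transcription start with a motif match within 100 bp of the summit, for weakened regions with 95% Wilson intervals, for retained regions as they are and weighted to the strength and GC content of weakened ones, and for regions with no p63 peak. AP-1 stands at 26.8% in weakened and 34.8% in weighted retained regions, and CTCF at 22.8% in regions with no p63 peak against 9.92% in weakened ones.

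By their nearest neighbours, weakened regions were not gathered along the chromosomes. The nearest other CTR region was weakened for 113 of them (5.17%, 4.32 to 6.18%), and for 5.26% of retained regions. A second weakened region lay within 50 kb of 239 (10.9%). The matching share for retained regions was not computed, so this count does not show whether weakened regions were gathered. The densest 100 kb held 4 weakened of 7 regions, on chromosome 4 between summits 76897222 and 76990876, by SEPTIN11, a cytoskeletal GTPase, and SOWAHB. On chromosome 7, between 107995675 and 108079825, 3 of 3 regions were weakened by LAMB1, which encodes the laminin β1 chain of basement membranes, and LAMB4. By chromosome the weakened share ran from 2.24% (1.62 to 3.09%) on chromosome 19 to 7.06% (5.99 to 8.29%) on chromosome 4, whose regions had median GC contents of 60.7% and 46.8%. Regions open in p63 cells without a CTR peak, of which there were 7444, lay within 10 kb of 9.24% (8.10 to 10.5%) of weakened regions and of 7.56% of weighted retained ones. Within 50 kb the shares were 31.1% and 33.2%.

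The weakened regions were spread over many genes. As the nearest protein-coding gene, 1841 of 14139 genes had at least 1, of which 1575 had 1, 202 had 2 and 64 had 3 or more. Genes with 5 were ADAMTS5, a protease that degrades aggrecan, with 5 of its 16 CTR regions, the RNA-binding protein gene RBMS3 with 5 of 18, and PDE4D, a phosphodiesterase that breaks down cAMP, with 5 of 23. Genes with 4 were COL12A1 (4 of 10), FAR2 (4 of 11), ZNF217 (4 of 12), the guidance factor SEMA3A (4 of 14), DLC1 (4 of 17), FOXP1 (4 of 17), ARHGAP26 (4 of 20) and ASAP1 (4 of 29). Over all CTR regions the weakened share was 5.25%, and it was 16.8% from a −log10 q of 15 to 20. These genes were picked from 14139 for their counts, so their shares are not evidence of local concentration. Most of the genes named here are long or have wide intergenic surroundings, and the regions counted for ADAMTS5 lay up to 942572 bp from its start.

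At ADAMTS5 the strongest of the 5 lay within the gene at chr21:26918597-26918974, with 26 reads in CTR (17 to 38.1) and 14 in p63 (7.65 to 23.5). Its other 4 regions had 20 to 34 CTR reads and 12 to 22 p63 reads. At COL12A1, besides the upstream region above, the weakened region at chr6:75142931-75143453, in a coding exon and 2950 bp from the start of one of the gene's transcripts, had 30 reads in CTR (20.2 to 42.8) and 13 in p63 (6.92 to 22.2). The strongest region nearest to FOXP1, a forkhead repressor, was intergenic at chr3:70849932-70850268, 116347 bp from the nearest start of the gene. It had 32 CTR reads (21.9 to 45.2) and 14 p63 reads (7.65 to 23.5). At each of these 3 regions the intervals overlapped.

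Genes of fibroblast functions were counted from 12 lists, over all CTR regions of −log10 q 15 or more within 50 kb of a start. The fibroblast matrix list had 9 weakened of 194 regions (4.64%, 2.46 to 8.58%), 2 each by COL12A1 and TNC and 1 each by COL16A1, COL6A3, FBLN2, FBN1 and LOX. The COL6A3 promoter had 46 reads in CTR and 34 in p63, at summits 1003 bp apart with 2 p63 peaks over the CTR peak, and the region by COL16A1 had 32 and 14. Mesenchymal transcription factors had 8 of 141 (5.67%), 2 of them by EBF2, and the RUNX1 promoter had 41 reads in CTR and 27 in p63, at summits 245 bp apart. The actin and contractile list had 10 of 212 (4.72%), 2 of them in LPP, with 33 CTR reads against 18 at the MYH9 promoter, at summits 474 bp apart, and 24 against 12 by MYOCD, the coactivator of SRF. TGF-β and BMP genes had 8 of 176 (4.55%), 2 of them in LTBP1, which anchors latent TGF-β in the matrix. The region in the co-repressor gene SKI had 46 reads (33.7 to 61.4) against 20 (12.2 to 30.9), and the region by BMP4 had 26 against 11.

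Within 50 kb, YAP-TEAD target genes had the highest share of the lists, 11 of 155 (7.10%, 4.01 to 12.3%), and 5 of the 11 lay by DLC1, which encodes a protein of focal adhesions. DLC1 was the single listed gene with 3 or more weakened regions, 5 of its 16. Those 5 had 26 to 39 CTR reads and 14 to 21 p63 reads, and the largest pair, 39 (27.7 to 53.3) against 21 (13 to 32.1), had intervals that overlapped. Another 2 were by WWTR1, which encodes TAZ, and CCN2, AMOTL1, AMOTL2 and CRIM1 had 1 each. Adhesion and guidance genes had 10 of 168 (5.95%), with 2 by SLIT3. The order of these 2 lists turned with the assignment of regions, to 6.12% for YAP-TEAD targets and 8.60% for adhesion and guidance genes by nearest gene and to 6.14% and 6.78% within 100 kb. In the range from 15 to 20, mesenchymal transcription factors (20.7%) and adhesion and guidance genes (20%) also stood above YAP-TEAD targets (18.6%). Growth factor genes had 5 of 152 (3.29%), of which 2 were by FGFR1. Inflammatory genes had 5 of 136 (3.68%), with 1 region, of 41 CTR and 25 p63 reads, shared by CCL2, CCL7 and CCL11. For these 8 lists the intervals included the 5.25% of all regions.

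The lowest shares were at keratinocyte genes, with 1 weakened of 177 regions (0.565%, 0.0998 to 3.13%), and at cell cycle and senescence genes, with 1 of 136 (0.735%, 0.130 to 4.05%). The keratinocyte region was by EHF, an epithelial ETS factor, with 20 reads in CTR and 15 in p63, and the cell cycle region was by CCNA2, the cyclin A2 gene, with 29 and 14. Regions of these lists had median CTR −log10 q of 31.3 and 32.8, and median GC contents of 55.7% and 59.2%. Of all CTR regions at 55 to 60% GC, 3.41% were weakened, and 12.3% of those from 15 to 20. The part of GC content in the low shares was not tested. In the range from 15 to 20, 1 of 38 keratinocyte regions (2.63%) and 1 of 19 cell cycle and senescence regions (5.26%) were weakened. The share of all regions of that strength was 16.8%, but each of these counts rests on 1 region and has no interval. Both shares over all strengths moved with the assignment of regions, to 3.64% for keratinocyte genes by nearest gene and to 4.11% for cell cycle and senescence genes within 100 kb. AP-1 factor genes had 2 of 101 (1.98%), by ATF3 and BACH1, and HOX genes 1 of 25 (4%), by the HOXC cluster, where the region had 59 CTR and 38 p63 reads. The intervals of these last lists included 5.25%.

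**Figure D5:**
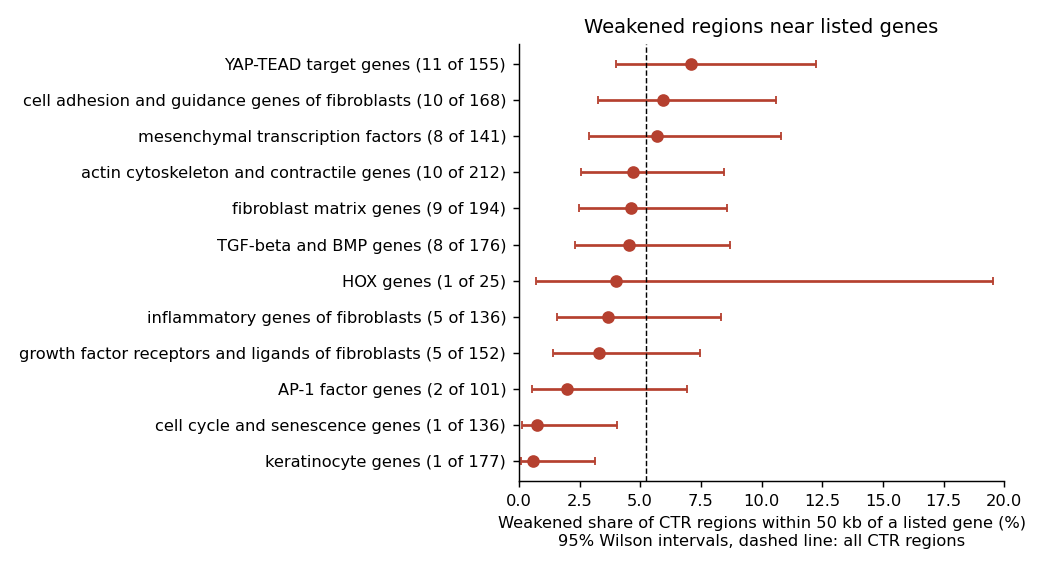
Weakened share of the CTR regions within 50 kb of the genes of 12 lists, with 95% Wilson intervals and the count of weakened regions of all regions beside each list. The dashed line is the 5.25% of all CTR regions of −log10 q 15 or more, which lies within 10 of the 12 intervals and above those of keratinocyte genes and of cell cycle and senescence genes.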

How the data were processed

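Per the labels and the methods, the reads of each group were mapped to hg38 with Bowtie2 2.3.4.3, and MACS2 called peaks from the 2 replicates together. The version and options of MACS2, duplicate removal and the shift of reads for the transposase are not given in the sources used here. The deposited lists held, for each peak, a summit position, its fold (the ratio of pileup at the summit to local background), and its p and q on the −log10 scale. The fold and −log10 p were solved for the whole number of reads and the background, which gave whole reads within 0.001 on the −log10 scale in 99.98% of peaks of both lists (the −log10 p was computed from a Poisson distribution). The lists were not scaled to each other, and their read totals are unknown. Peaks on other sequences than chromosomes 1 to 22 and X were left out, which kept 100863 of 103700 CTR peaks and 109208 p63 peaks.

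Annotation was GENCODE 44, and sequence came from hg38. Distances run from the CTR summit to the nearest start of a transcript. Shares have 95% Wilson intervals, differences Newcombe intervals and reads Poisson intervals. These cover counting error only, since reads without molecular identifiers are not independent molecules. Since a list of peaks holds no replicates, p-values are not given. Scripts (Python 3.11.15, pysam 0.24.0, SciPy 1.17.1) were tested on simulated peaks. The named regions are the 10 with the highest CTR −log10 q and the 10 with the lowest ratio of folds (from a CTR fold of 4). Also named are the 5 strongest within 1 kb of a protein-coding start and those at the thresholds. For each of 6 motifs, the 2 strongest regions off chromosome 8 with a match were taken (none had NFI). The named genes are the 10 with the most weakened regions (with 1 tie), every listed gene with 3 or more and the first of each list. Members, motifs and lists were chosen with earlier results of these data known. Coordinates are 1-based. Some regions that these rules name are not reported here.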

Additional observations from a re-analysis of the deposited data

How the results depend on the processing

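The lists hold 1 set of peaks per group, so no replicate could be left out. No paired analysis was possible because the lists carry no value per replicate, although the labels number the experiments. The number of weakened regions (2185) moved with the thresholds: a CTR threshold of 20 gave 588, a p63 threshold of 5 gave 201, and a ratio of folds of 0.6 or less gave 1050, or 964 after centring on GC class (added after seeing the data). An overlap of 50% of the CTR peak gave 1883 and a p63 threshold set by rank gave 3187. Merging peaks within 100 bp left it at 2185, since no 2 peaks of a list were so close.

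The lower promoter share and lower GC content kept their sign under every alternative run. The promoter difference of -21.9 percentage points was -26.2 with a CTR threshold of 20, -28.3 with a p63 threshold of 5, -9.49 after weighting to strength and -7.99 among regions of −log10 q 15 to 20. The GC difference of -7.46 was -9.45 with a CTR threshold of 20, -4.98 with folds centred on GC class, -3.98 after weighting to strength and -3.48 among regions of −log10 q 15 to 20.

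The motif differences over all locations moved with the choice of regions compared. The AP-1 difference of -0.184 turned to 0.111 with a CTR threshold of 20 and to 0.157 with a motif window of 50 bp, and was -2.94 with a p63 threshold of 5, -2.15 weighted to strength, -7.60 weighted to GC and -6.73 for distal regions weighted to strength. The CTCF difference of 2.20 turned to -0.440 with a p63 threshold of 5, to -1.66 weighted to strength and to -2.53 for distal regions weighted to strength, and was 3.93 with folds centred on GC class and 4.16 weighted to GC. The TEAD difference of 4.49 stayed positive, at 7.92 with a p63 threshold of 5, 2.53 with a motif window of 50 bp and 0.692 weighted to GC. The p63 site difference of -0.437 stayed negative and was -0.704 for distal regions weighted to strength. The cause of these shifts was not tested.

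The share of nearest neighbours that were weakened was 5.17% and follows the size of the class. It was 0.680% with a CTR threshold of 20, 0% with a p63 threshold of 5, 7.72% with the threshold by rank, 4.3% with an overlap of 50%, 2.38% with a ratio of folds of 0.6 and 1.56% with folds centred on GC class. Near listed genes, YAP-TEAD targets dropped to 1.82% in a window of 10 kb, keratinocyte genes rose to 3.64% when regions were assigned to the nearest gene, and cell cycle genes gave 0% at 10 kb and 4.11% at 100 kb. So the low shares of the last 2 lists depend on how regions are assigned. Depth limits single regions: most had 20 to 29 CTR reads, and at 2073 the intervals of the reads overlapped.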
